A study of Mus musculus with 4 samples.

Results

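The NRF2 and antioxidant genes are 40 mouse genes chosen by symbol: the transcription factor NRF2 and its inhibitor, and the enzymes of glutathione, thioredoxin, peroxide, superoxide, NADPH, haem and ferritin metabolism. All 40 were found among the 51509 genes listed in the deposited count table. They were measured by RNA sequencing in intestinal organoids, epithelial cultures grown from the gut, of wild type C57BL/6 mice 8 to 12 weeks old. Every library was made 36 hours after 8 Gy of irradiation, so both groups were irradiated and unirradiated organoids were not analysed here. One group of 2 libraries received vehicle, and the other group of 2 received SGC-CBP30, a small molecule that occupies the acetyl-lysine pocket of the bromodomains of the coactivators CBP and p300. The labels do not say what the vehicle was, at what dose or when the compound was given, which stretch of intestine was used, or whether replicates came from separate cultures or animals. The second SGC-CBP30 library has SGC-CBP31 as its treatment label and was grouped by its title.

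NRF2, encoded by Nfe2l2, is a transcription factor that is normally held by KEAP1 and passed to a ubiquitin ligase for destruction. Oxidants and electrophiles modify KEAP1, and NRF2 then accumulates, pairs with small MAF proteins and binds antioxidant response elements near genes of glutathione synthesis, thioredoxin reduction, quinone reduction, NADPH supply and iron storage. CBP and p300 are known coactivators of NRF2. In the gut epithelium these enzymes handle oxidants from food, microbes and the cells' own metabolism, and radiation itself produces reactive oxygen.

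The libraries held 16433117 to 18087250 counts. Values by library are in CPM, counts scaled to a common library total with TMM factors, and the log2 fold changes, SGC-CBP30 relative to vehicle, carry a standard error (SE) from edgeR's quasi-likelihood fit over 14684 genes. A gene is called at a Benjamini-Hochberg adjusted p under 0.05 over all genes tested. The p-values rest on the spread among these 4 libraries, and that spread may be technical. Epithelial markers such as Epcam, Vil1 and Cdh1 were abundant, and these 3 did not pass the threshold. Of all 8 epithelial markers the keratin genes Krt8, Krt18, Krt19 and Krt20 were called higher and Cdx2 was called lower. Summed over the 8 the level was 7766 and 7802 CPM with vehicle and 9953 and 9162 CPM with SGC-CBP30. All 8 fibroblast and smooth muscle markers and all 6 erythroid markers stayed under 1 CPM in every library, and 3 of the erythroid ones had no count at all. Of 8 leukocyte and macrophage markers 4 stayed under 1 CPM, among them Ptprc, and the summed level was 8.99 to 13.1 CPM.

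With SGC-CBP30 the transcript of NRF2 itself fell, together with those of catalase, 3 glutathione peroxidases, 1 peroxiredoxin, the catalytic subunit of glutathione synthesis and the classical target Nqo1. Transcripts of ferritin heavy chain, glutathione synthetase, transketolase, malic enzyme and peroxiredoxin 1 rose. Known NRF2 targets did not share a direction. Srxn1 was not past the threshold, and of 12 tested targets outside the members 6 rose and 4 fell. Of the 39 members with enough counts to be tested, 16 were lower, 5 were higher and 18 were not past the threshold. Over all genes tested 16.3% were lower and 13.6% were higher, 30.0% in all. Abundant genes were called more often, and most members are abundant. Among all genes with a mean of at least 50 CPM 26.3% were lower and 19.4% were higher, 45.7% together, while of the 33 members at that level 15 were lower and 5 were higher. These shares also stand beside the counts of the role groups given below, which are small. Changes were modest, since 18 of the 21 called members changed by less than 1.5-fold. The members' median log2 fold change was -0.10, against 0.0096 over all genes tested. The count of higher members was 1 without vehicle replicate 1, 3 without vehicle replicate 2 and 8 without SGC-CBP30 replicate 2, and the 16 lower ones became 12 without vehicle replicate 2. Scaled by library totals, 8 members were higher and 14 lower, and the higher share of all calls went from 45.5% to 60.2%. The members' median was -0.028 on that scale, -0.21 without SGC-CBP30 replicate 1 and -0.053 without SGC-CBP30 replicate 2. In 34 of the 39 tested members the second SGC-CBP30 library was the lower one of its group, whereas in vehicle 17 of 39 were lower in the second library. The share over all genes was not computed, so this is not shown to be particular to the members. All the epithelial markers except Cdh1 were also lower in the second SGC-CBP30 library than in the first.

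**Figure D1:**
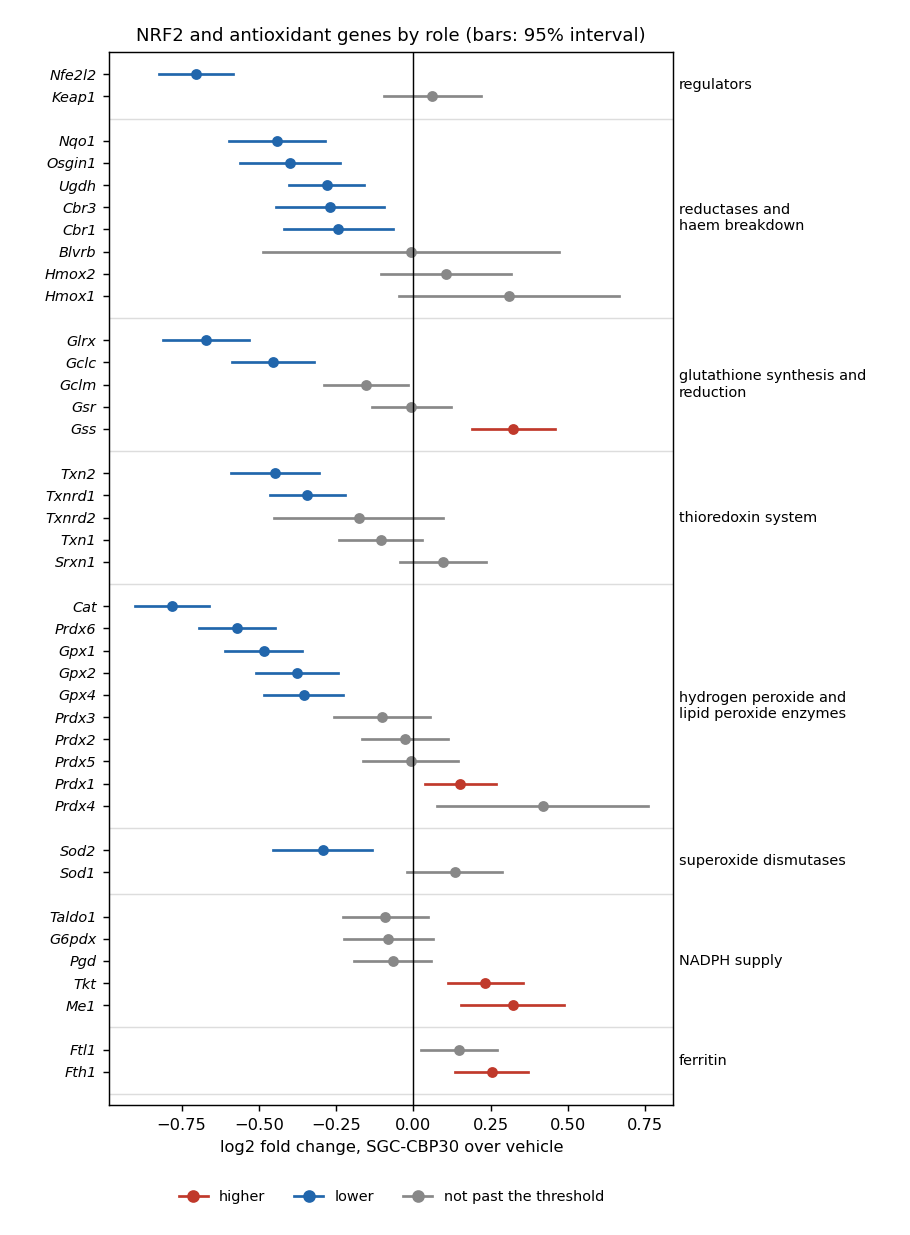
Log2 fold change, SGC-CBP30 relative to vehicle, for the 39 tested members, grouped by role, with 95% intervals from the edgeR fit. Blue genes were called lower (16), red genes higher (5) and grey genes were not past the threshold (18), and the lower calls reach from Cat at -0.78 to Cbr1 at -0.24.

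The regulators differed from each other. Nfe2l2 (ENSMUSG00000015839, chromosome 2, 75675513 to 75704641, minus strand, GRCm38) stood at 528 and 549.6 CPM in the vehicle libraries and at 329 and 333 CPM in the SGC-CBP30 libraries. The SGC-CBP30 libraries were far below both vehicle libraries and within 4 CPM of each other in rounded values. The log2 fold change was -0.70 ± 0.058 (SE), a 1.63-fold fall (edgeR adjusted p = 6.36e-10). Keap1, which encodes the NRF2 inhibitor (ENSMUSG00000003308, chromosome 9, 21229730 to 21239361, minus strand), stood at 70.1 and 69.0 CPM with vehicle and 74.0 and 71.1 CPM with SGC-CBP30. Its log2 fold change of 0.062 ± 0.076 did not pass (edgeR adjusted p = 0.599), and the 95% interval ran from -0.095 to 0.22. Per gene length, in the authors' FPKM values, Nfe2l2 exceeded Keap1 by 9.32 and 9.85 times in the vehicle libraries and by 5.50 and 5.79 times in the SGC-CBP30 libraries.

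The sequence just upstream of the Nfe2l2 start is shown because NRF2 is known to act on its own gene and because this transcript fell furthest but one among the members. The 250 bases before the RefSeq start (chr2:75704664-75704913, GRCm38.p6, minus strand, 5′ to 3′) hold 1 match to the core of the antioxidant response element, TGACNNNGC, in capitals, beginning 240 bases before the start.
Nfe2l2: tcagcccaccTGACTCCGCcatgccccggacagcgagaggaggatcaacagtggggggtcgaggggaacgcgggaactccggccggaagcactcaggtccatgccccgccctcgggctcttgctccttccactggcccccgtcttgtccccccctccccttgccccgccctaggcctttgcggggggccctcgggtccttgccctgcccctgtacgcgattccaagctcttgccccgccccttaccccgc
On the other strand the GENCODE annotation places the first exon of a non-coding RNA gene over part of this stretch, the match included. The letters alone show no binding, and none was measured here.

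Enzymes that remove hydrogen peroxide and lipid peroxides held the largest fall. Of the 10 members of this role 5 fell and 1 rose, and the other 4 did not pass the threshold. Of all genes with a mean of at least 50 CPM 26.3% were lower. The summed level of the 10 went from 3407 and 3388 CPM with vehicle to 2883 and 2703 CPM with SGC-CBP30. Cat, which encodes catalase of peroxisomes (ENSMUSG00000027187, chromosome 2, 103453849 to 103485160, minus strand), stood at 568 and 562 CPM with vehicle and at 338 and 319.8 CPM with SGC-CBP30. The groups lay well apart, with a log2 fold change of -0.78 ± 0.058 (SE), a 1.72-fold fall (edgeR adjusted p = 1.07e-10). Prdx6, a peroxiredoxin that also reduces phospholipid peroxides, fell from 397 and 384 CPM to 271 and 255 CPM, a log2 fold change of -0.57 ± 0.060.

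The 3 glutathione peroxidases among the members are selenoproteins, and all 3 fell. Gpx1, the widespread cytosolic form, stood at 529.8 and 521 CPM with vehicle and at 393 and 358 CPM with SGC-CBP30, a log2 fold change of -0.48 ± 0.060 (SE). Gpx2, the form typical of the gut epithelium, stood at 254 and 229 CPM with vehicle and at 187 and 186 CPM with SGC-CBP30, a log2 fold change of -0.38 ± 0.065. Gpx4, which reduces lipid peroxides within membranes and restrains ferroptosis, stood at 491 and 511 CPM with vehicle and at 414 and 369 CPM with SGC-CBP30, a log2 fold change of -0.36 ± 0.062. In each of the 3 both SGC-CBP30 libraries were below both vehicle libraries. The listed pseudogene Gpx4-ps2 had 13.4% as many counts as Gpx4 and a log2 fold change of -0.33, so how reads were divided between the pair is uncertain. Per gene length, Gpx1 exceeded Gpx2 by 4.66 and 5.08 times in vehicle and by 4.71 and 4.30 times in SGC-CBP30 FPKM values.

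The peroxiredoxins, thiol peroxidases that are recharged by thioredoxin or glutathione, did not share a direction. Prdx1 rose from 714 CPM in both vehicle libraries to 799.7 and 786 CPM, a log2 fold change of 0.15 ± 0.056 (SE) that lay just inside the threshold (edgeR adjusted p = 0.0410). This call was lost without vehicle replicate 1 (edgeR adjusted p = 0.326) or replicate 2 (edgeR adjusted p = 0.310), in DESeq2 (adjusted p = 0.0577) and when genes needed 50 counts in 2 libraries (edgeR adjusted p = 0.0572). Prdx4, the peroxiredoxin of the endoplasmic reticulum, was among the lowest members at 8.57 to 9.33 CPM with vehicle and 10.9 to 13.1 CPM with SGC-CBP30, and with a log2 fold change of 0.42 ± 0.16 it was just outside (edgeR adjusted p = 0.0581). Prdx4 passed when scaled by library totals (edgeR adjusted p = 0.0251) and without SGC-CBP30 replicate 1 (0.54, edgeR adjusted p = 0.0248), and its log2 fold change was 0.28 without SGC-CBP30 replicate 2. The mitochondrial Prdx3, the cytosolic Prdx2 and Prdx5 had log2 fold changes of -0.10, -0.026 and -0.0083 and were not past the threshold. Prdx2 overlaps Junb and Rnaseh2a, and Prdx5 overlaps Trmt112, on the other strand, and since strand use is not given in the sources used here their counts are uncertain.

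Glutathione synthesis and reduction moved in both directions. The limiting step joins glutamate and cysteine, and Gclc encodes the catalytic subunit of its enzyme (ENSMUSG00000032350, chromosome 9, 77754535 to 77794485, plus strand). Gclc stood at 195 and 197 CPM with vehicle and at 140.1 and 146 CPM with SGC-CBP30, without overlap. Its log2 fold change was -0.45 ± 0.064 (SE), a 1.37-fold fall (edgeR adjusted p = 4.92e-06). Gclm, the modifier subunit of the same enzyme, stood at 176 and 170.5 CPM with vehicle and at 161 and 151 CPM with SGC-CBP30. Its log2 fold change of -0.15 ± 0.065 did not pass (edgeR adjusted p = 0.0798), but Gclm was called lower when genes needed 50 counts in 2 libraries and without SGC-CBP30 replicate 1. The ratio of Gclc to Gclm, per gene length in FPKM, was 1.85 and 1.93 in vehicle and 1.46 and 1.61 in SGC-CBP30 libraries.

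Gss, which encodes the enzyme of the second step, rose from 143 and 144 CPM to 186 and 173 CPM, a log2 fold change of 0.32 ± 0.065 (SE) and the reverse of Gclc. It overlaps Acss2 on the other strand, which had 45.5% as many counts and a log2 fold change of -0.19 that was not past the threshold. Glrx, glutaredoxin, which removes glutathione from protein thiols, fell from 174 and 163 CPM to 106 CPM in both SGC-CBP30 libraries. At -0.67 ± 0.067 its log2 fold change came after those of Cat and Nfe2l2 in size among the members that fell. Gsr, the reductase that regenerates glutathione with NADPH, was at 245 and 244 CPM with vehicle and 254 and 233 CPM with SGC-CBP30, and the groups overlapped. Its 95% interval ran from -0.14 to 0.12 on the log2 scale.

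In the thioredoxin system 2 of 5 members fell and 3 were not past the threshold. Of all genes with a mean of at least 50 CPM 45.7% were called in either direction. Txn2, mitochondrial thioredoxin, stood at 126 CPM in both vehicle libraries and at 94.4 and 90.1 CPM with SGC-CBP30, a log2 fold change of -0.45 ± 0.069 (SE). Txnrd1, the cytosolic thioredoxin reductase and a selenoprotein, fell from 588 and 599 CPM to 486 and 449 CPM, a log2 fold change of -0.34 ± 0.059. Txn1, the cytosolic thioredoxin, was the second most abundant member per gene length at a mean of 537 FPKM in vehicle, and its log2 fold change of -0.11 ± 0.065 was not past the threshold. Srxn1, sulfiredoxin, which repairs overoxidised peroxiredoxins and is a well-known NRF2 target, had a log2 fold change of 0.097 ± 0.067. For Txnrd2, the mitochondrial reductase, it was -0.18 ± 0.13, and neither gene passed the threshold.

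Of the 8 reductases and haem enzymes 5 fell and 3 were not past the threshold, beside 16.3% lower over all genes tested. Nqo1, the quinone reductase most used as a readout of NRF2 (ENSMUSG00000003849, chromosome 8, 107388225 to 107403206, minus strand), stood at 86.0 and 83.1 CPM with vehicle and at 63.5 and 61.2 CPM with SGC-CBP30. Its log2 fold change was -0.44 ± 0.076 (SE), a 1.36-fold fall (edgeR adjusted p = 7.23e-05). Osgin1, an oxidative stress induced growth inhibitor, stood at 92.2 and 89.1 CPM with vehicle and at 73.1 and 64.4 CPM with SGC-CBP30, a log2 fold change of -0.40 ± 0.079. Ugdh, which makes UDP-glucuronic acid, had a log2 fold change of -0.28 ± 0.059.

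The carbonyl reductase genes Cbr3 and Cbr1 had log2 fold changes of -0.27 ± 0.085 and -0.24 ± 0.082 (SE), with weaker support. Cbr1 stood at 433 and 439 CPM with vehicle and at 409 and 327 CPM with SGC-CBP30, so most of its difference came from the second SGC-CBP30 library, and without that library the log2 fold change was -0.090 (edgeR adjusted p = 0.134). Its call was also lost in DESeq2 (adjusted p = 0.294), when scaled by library totals (edgeR adjusted p = 0.116) and without vehicle replicate 1 (edgeR adjusted p = 0.0663) or 2 (edgeR adjusted p = 0.115). The Cbr3 call was lost in DESeq2 (adjusted p = 0.0642), when scaled by library totals (edgeR adjusted p = 0.0786) and without vehicle replicate 1 (edgeR adjusted p = 0.0675) or 2 (edgeR adjusted p = 0.218), and the Ugdh call without vehicle replicate 2 (edgeR adjusted p = 0.116).

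The enzymes of haem breakdown were at low levels. Hmox1, the inducible haem oxygenase and a widely used marker of oxidative stress, stood at 7.75 and 10.2 CPM with vehicle and at 11.6 and 10.6 CPM with SGC-CBP30. Its log2 fold change of 0.31 ± 0.17 (SE) did not pass (edgeR adjusted p = 0.192), and the 95% interval of -0.047 to 0.67 does not exclude a change of 1.5-fold. Hmox2, the constitutive form, and Blvrb, a biliverdin reductase, had log2 fold changes of 0.11 ± 0.10 and -0.0081 ± 0.23, and neither passed. Hmox2 overlaps the more abundant Cdip1 on the other strand, which fell by 0.54 on the log2 scale, so its counts are uncertain.

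**Figure D2:**
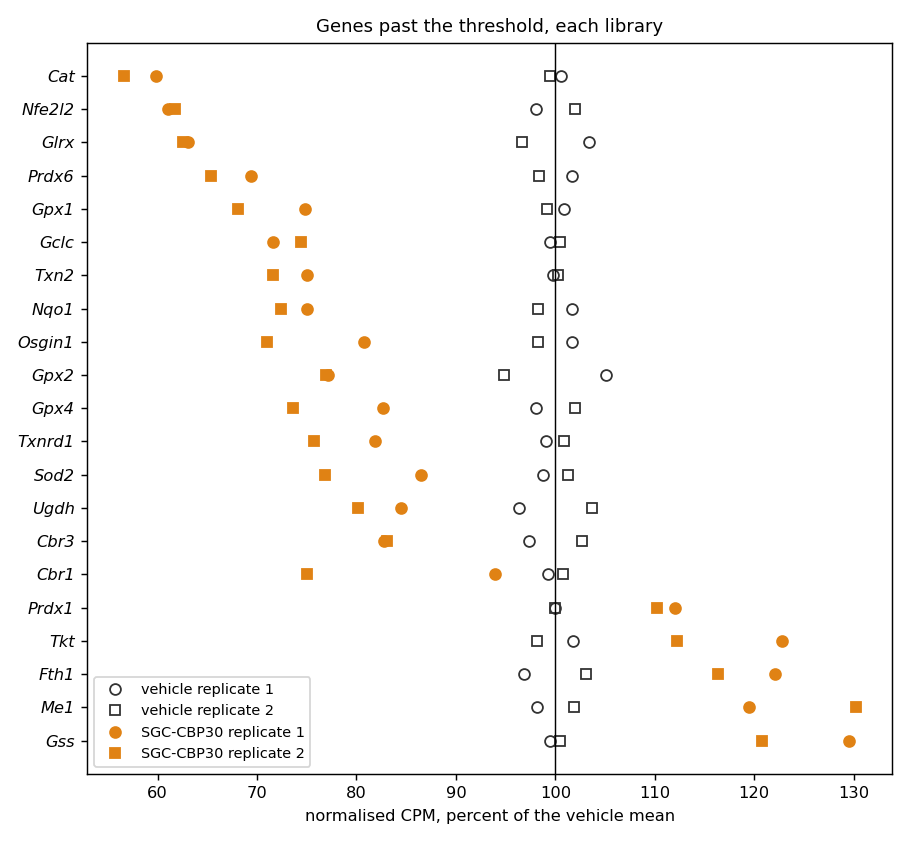
Normalised CPM of the 21 called members in each of the 4 libraries, as a percentage of the mean of the 2 vehicle libraries, ordered by fold change. Open symbols are vehicle and filled symbols SGC-CBP30. For all 21 genes the groups do not overlap, against 63.1% of all genes tested. The 21 were picked by adjusted p in these same libraries, so this is no separate support. On this percentage scale the SGC-CBP30 libraries of Cbr1 lie furthest apart, at 409 and 327 CPM.

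Of the superoxide dismutases, which turn superoxide into hydrogen peroxide, Sod2, the mitochondrial form, fell from 87.8 and 90.0 CPM to 76.9 and 68.3 CPM, a log2 fold change of -0.29 ± 0.078 (SE). Its call was lost without vehicle replicate 2 (edgeR adjusted p = 0.0933). Sod1, the cytosolic form, was at 279.7 and 272 CPM with vehicle and at 333 and 273 CPM with SGC-CBP30, and its log2 fold change of 0.13 ± 0.074 was not past the threshold. It overlaps Scaf4 on the other strand. Sod3, the extracellular form, had 3 and 16 counts in vehicle and 3 and 4 counts in SGC-CBP30 libraries and was the member too low to test. At that depth 3 counts correspond to 0.170 to 0.188 CPM, and no difference in Sod3 was detectable.

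NADPH is the electron source of both the glutathione and thioredoxin systems. Among the 5 members grouped under NADPH supply 2 rose, none fell and 3 were not past the threshold. Of all genes with a mean of at least 50 CPM 45.7% were called in either direction. The group includes Tkt and Taldo1, which do not make NADPH themselves. Me1, the cytosolic malic enzyme, rose from 52.3 and 54.3 CPM to 63.7 and 69.4 CPM, a log2 fold change of 0.32 ± 0.081 (SE). Tkt, transketolase of the non-oxidative pentose phosphate pathway, stood at 759.8 and 733 CPM with vehicle and at 917 and 838 CPM with SGC-CBP30, a log2 fold change of 0.23 ± 0.059. G6pdx and Pgd, the NADPH-making dehydrogenases of the oxidative branch, had log2 fold changes of -0.081 ± 0.070 and -0.067 ± 0.060, and Taldo1, transaldolase, had -0.090 ± 0.066. G6pdx overlaps Ikbkg on the other strand. The Me1 call was lost without vehicle replicate 1 (edgeR adjusted p = 0.0785), and the Tkt call without vehicle replicate 1 (edgeR adjusted p = 0.0548) or 2 (edgeR adjusted p = 0.140).

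Ferritin, the iron store that keeps free iron from making radicals, was the most abundant product of the set. Fth1, the heavy chain with ferroxidase activity (ENSMUSG00000024661, chromosome 19, 9982703 to 9985092, plus strand), stood at 2755 and 2932 CPM with vehicle and at 3473 and 3309 CPM with SGC-CBP30. The groups did not overlap, and the log2 fold change was 0.25 ± 0.057 (SE), a 1.19-fold rise (edgeR adjusted p = 0.00140). Without vehicle replicate 1 it was 0.21 and the call was lost (edgeR adjusted p = 0.107). Ftl1, the light chain, stood at 386 and 396 CPM with vehicle and at 449 and 416 CPM with SGC-CBP30, just outside the threshold with a log2 fold change of 0.15 ± 0.059 (edgeR adjusted p = 0.0649). It passed without SGC-CBP30 replicate 2 (edgeR adjusted p = 8.7e-05) and when scaled by library totals (edgeR adjusted p = 0.00476). Per gene length the heavy chain exceeded the light chain by 11.0 and 11.5 times in vehicle and by 12.0 and 12.3 times in SGC-CBP30 libraries. Ferritin chains have several processed pseudogenes, and the 5 listed for them by name held at most 435 counts each, against 212905 for Fth1 and 28127 for Ftl1.

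**Figure D3:**
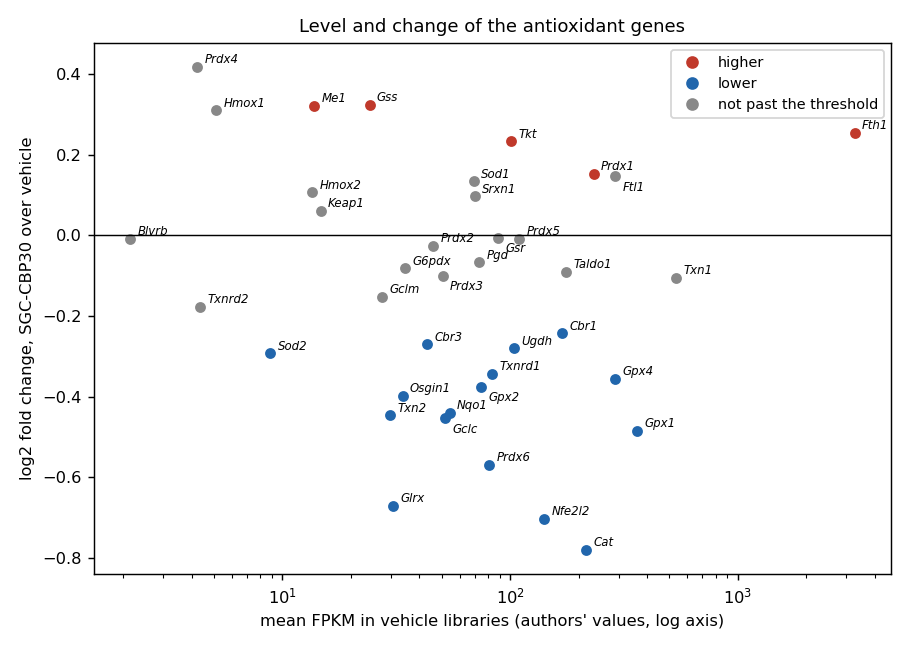
Mean FPKM of each tested member in the vehicle libraries, as given by the authors, on a log axis, against its log2 fold change with SGC-CBP30. Levels run from Blvrb at 2.14 to Fth1 at 3270.2 FPKM, and genes that fell (blue) and rose (red) are found both among the abundant members and among those of middle level.

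Groups did not overlap in 29 of the 39 tested members, 74.4%, against 63.1% of all genes tested. Of the 18 members not past the threshold 16 had a 95% interval inside 1.5-fold in either direction, the exceptions being Hmox1 and Prdx4. Without SGC-CBP30 replicate 1, Txn1, Prdx5, Pgd and Taldo1 were also called lower, and without SGC-CBP30 replicate 2, Srxn1 and Sod1 were called higher. Sod1 was called higher when scaled by library totals too. The authors' deposited table, whose test is not named, has 14 members lower and 5 higher at an adjusted p under 0.05. All 19 were called here with the same sign, and the 2 called here and not there were Cbr1 and Cbr3.

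Matches to the core of the antioxidant response element were counted in RefSeq promoter windows of 300 bases, 250 before and 50 after each start (GRCm38.p6), which were available for 35 members. TGACNNNGC on either strand was found for 10 of the 35, 28.6%, against 13.99% of 27025 genes with a window. A gene counted if any of its windows held a match. The 35 members had 47 windows and the 27025 genes had 32851, so the members had somewhat more windows per gene. The members were chosen as NRF2 and antioxidant genes, so the higher share is no separate support. By direction it was found for 3 of 14 members that fell, 2 of 5 that rose and 5 of 16 that were not past the threshold. A stricter form, the core with an A after its last base, was found for 2 of the 35, 5.7%, against 3.45% of the 27025 genes. The 2 were Txnrd1, which fell, and Pgd, which was not past the threshold. Of the sites printed here only the Txnrd1 site has this A. The 5 sites of the core in called members other than Nfe2l2 are shown with 9 bases on each side. They are written 5′ to 3′ on the gene's strand with the match in capitals, to set members that rose beside members that fell.
Prdx1: agggaaagcGCTGAGTCAtcccccgta
Me1: atgccgccgTGACTCAGCgcttctcgc
Ugdh, farther site: cggagcccgTGACTTAGCtggagctga
Ugdh, nearer site: cctcaagggGCGTGGTCAtacagttcg
Txnrd1: tggatttttGCTTTGTCAttctgacac
The Prdx1 site (chr4:116685457-116685483, plus strand) lies on the opposite strand of the gene, where it reads TGACTCAGC, the same letters as the Me1 site (chr9:86695903-86695929, minus strand). Both of these genes rose. The Ugdh sites (chr5:65435957-65435983 and chr5:65435919-65435945, minus strand) and the Txnrd1 site (chr10:82859105-82859131, plus strand) belong to genes that fell. Gclm, Srxn1, Pgd, Sod1 and G6pdx also have a match and were not past the threshold. Elements outside these windows were not searched, so a gene without a match, such as Nqo1 or Cat, may have one elsewhere.

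Among 79 further genes of the NRF2 and redox pathways 74 were tested, where 15 rose and 18 fell, with the other 41 not past the threshold and a median log2 fold change of 0.0073. Scaled by library totals 24 of them were higher. Over all genes tested 13.6% were higher and 16.3% lower. Among all genes with a mean of at least 50 CPM 19.4% were higher and 26.3% lower. These shares also stand beside the counts of the smaller groups of this list given below. Of the factors related to NRF2, Nfe2l1, which drives proteasome genes, rose by 0.26 ± 0.069 (SE) on the log2 scale, and Nfe2, at 1.64 to 3.82 CPM, fell by 1.10 ± 0.32. The small MAF partners Mafg, Maff and Mafk and the repressors Bach1 and Bach2 were not past the threshold. Of 7 genes of NRF2 turnover 3 rose and none fell. Sqstm1, the autophagy receptor p62 that can sequester KEAP1, went from 169 and 174 CPM to 217 and 206 CPM, and Dpp3, a peptidase that binds KEAP1, from 76.7 and 79.7 CPM to 106 and 94.5 CPM. Btrc, which serves a second route of NRF2 destruction, rose by 0.45 ± 0.15 on the log2 scale.

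Cystine uptake and glutathione recycling had 2 genes that rose and 6 that fell among 14 tested. Slc7a11, the cystine importer, went from 24.1 and 29.5 CPM to 13.5 and 14.5 CPM, a log2 fold change of -0.93 ± 0.13 (SE), and its partner chain Slc3a2 fell by 0.46 ± 0.067. Ggt1, which cleaves glutathione outside the cell, and Oplah, which returns oxoproline to glutamate, fell by 0.40 ± 0.058 and 0.84 ± 0.13. Chac1, which degrades glutathione inside the cell, rose by 0.73 ± 0.20 from 4.98 and 7.07 CPM, and Gpx7, a peroxidase of the endoplasmic reticulum, rose by 1.43 ± 0.32 from 1.36 and 1.75 CPM.

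Of 9 other genes of the thioredoxin and methionine sulfoxide enzymes 1 rose, 1 fell and 7 did not pass. Txnip, which encodes an inhibitor of thioredoxin, was at 330.0 and 309 CPM with vehicle and at 529.9 and 520.3 CPM with SGC-CBP30, a log2 fold change of 0.72 ± 0.059 (SE). Of the other NADPH genes 4 of 11 fell and none rose, with Nadk2, the mitochondrial NAD kinase, going from 134 and 136 CPM to 78.2 and 73.0 CPM. Among 12 other known NRF2 targets 6 rose and 4 fell. Ptgr1, prostaglandin reductase, fell from 196 and 206 CPM to 92.0 and 82.9 CPM, a log2 fold change of -1.20 ± 0.070. Aldh1a1, a retinal dehydrogenase, fell by 0.88 ± 0.056. Abcc2, an exporter of glutathione conjugates, rose from 806 and 775 CPM to 1479 and 1672 CPM, a log2 fold change of 0.99 ± 0.062.

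Of 7 tested genes of haem, iron and ferroptosis outside the members 2 rose, 2 fell and 3 did not pass. Tfrc, the transferrin receptor, stood at 218 and 213 CPM with vehicle and at 110.3 and 117 CPM with SGC-CBP30, a log2 fold change of -0.92 ± 0.066 (SE), while Fth1 rose. Slc40a1, the iron exporter ferroportin, fell from 62.5 and 77.7 CPM to 37.6 and 35.6 CPM, a log2 fold change of -0.94 ± 0.096. Ncoa4, the receptor that takes ferritin to autophagy, rose from 209 and 222 CPM to 294 and 293 CPM, a log2 fold change of 0.45 ± 0.061. Transferrin receptor and ferritin are textbook examples of messages controlled by iron regulatory proteins, and neither iron nor those proteins were measured here. Whether that control has any part in these transcript levels was not tested.

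**Figure D4:**
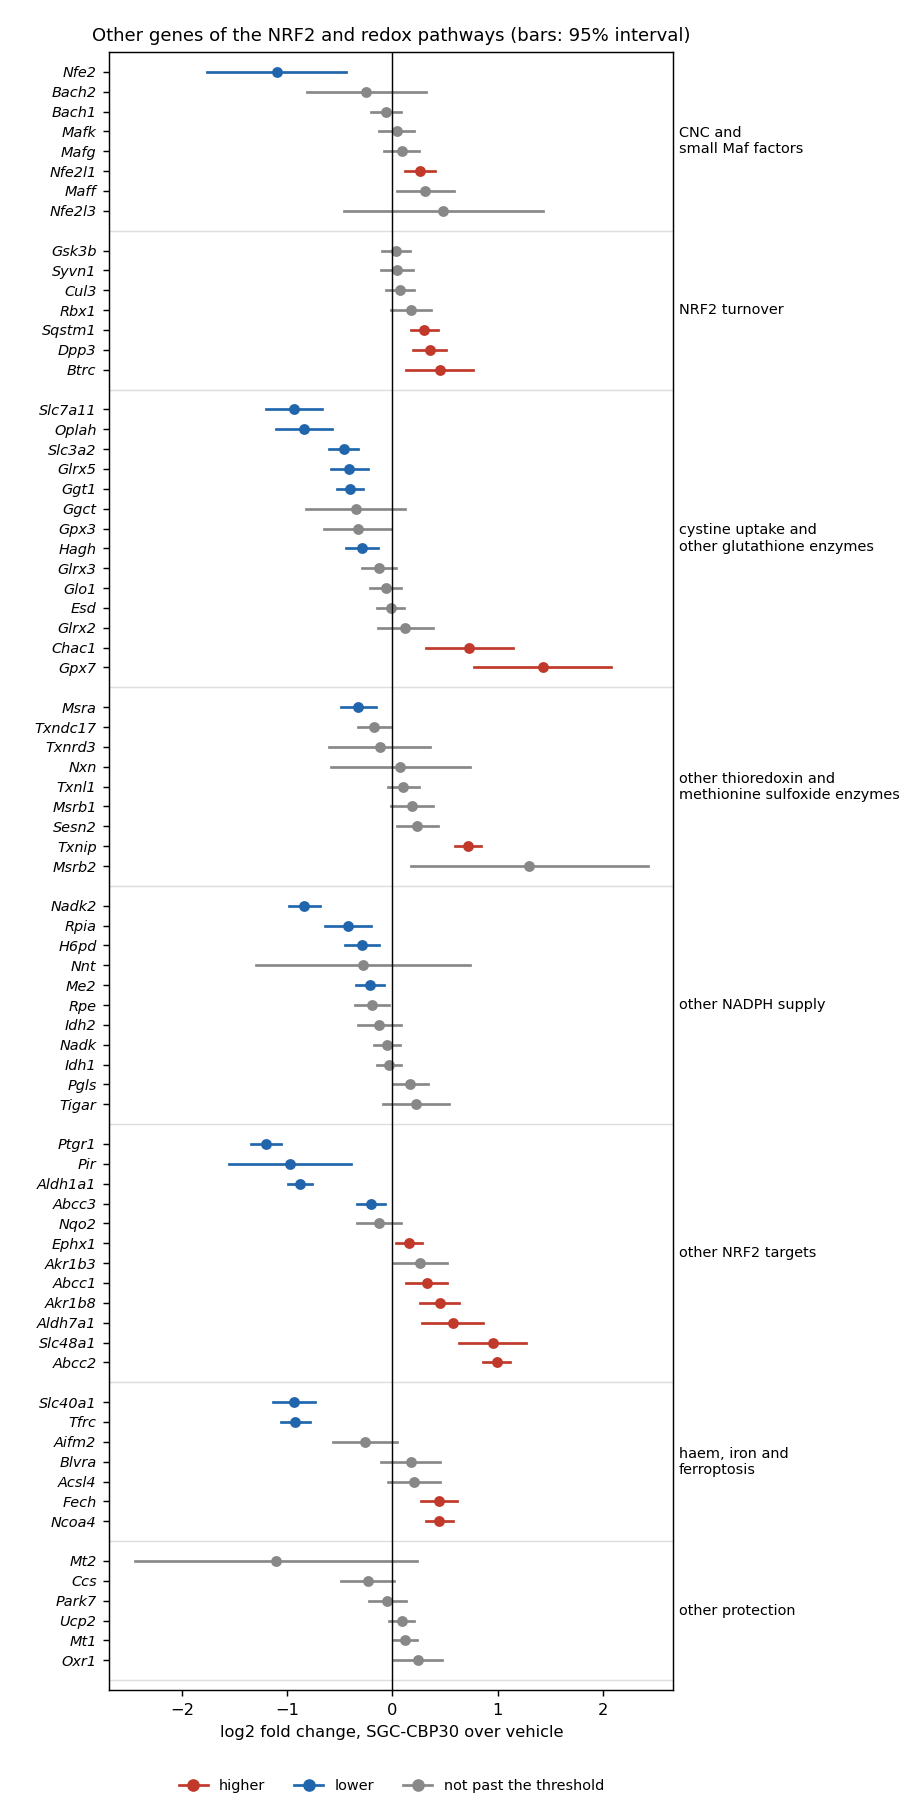
Log2 fold change, SGC-CBP30 relative to vehicle, with 95% intervals for the 74 tested further genes of the NRF2 and redox pathways. Of these 18 were called lower (blue), 15 higher (red) and 41 were not past the threshold (grey), and the called genes reach from Ptgr1 at -1.20 to Gpx7 at 1.43.

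Marker transcripts of several intestinal cell types also differed between the groups. Among 15 markers of enterocytes 10 fell and 1, Apoa4, rose, while Alpi, Mttp, Apoa1 and Fabp1 were not past the threshold. The summed level of the 15 was 46998 and 47281 CPM with vehicle against 36789 and 34776 CPM with SGC-CBP30. Sis, the most abundant of them with vehicle, went from 15107 and 15080 CPM to 6777 and 7770 CPM. Of 8 proliferation markers 4 fell and none rose, with sums of 633 and 597 CPM against 508 and 533 CPM. Of 6 Paneth cell markers 2 fell and none rose, while of 6 goblet cell markers 1 rose and 1 fell; over abundant genes 26.3% were lower. Among 5 markers of crypt base stem cells 2 fell, Olfm4 by 1.79 and Ascl2 by 0.98 on the log2 scale, and Lgr5 rose by 0.56. Enteroendocrine markers had 2 of 5 lower (Gcg and Tac1), tuft cell markers 1 of 4 (Trpm5) and leukocyte markers 1 of 4 tested, Csf1r, which was at 2.38 CPM or above with vehicle and at 0.763 and 0.626 CPM with SGC-CBP30. In bulk RNA fewer cells of a type and less RNA per cell cannot be told apart, and the part of these markers' cell types in the changes of the antioxidant genes was not tested.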

How the data were processed

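The authors deposited 1 table of genes by library, whose count columns hold raw whole-number counts per the file headers. The deposited FPKM values, per gene length and library total, were used only to compare levels between genes. The authors' log2 fold change and their p-value columns come from a test that is not named. Tools listed in the submitters' processing notes are featureCounts 1.5.0-p3, HISAT2 2.0.5 and StringTie 1.3.3b, with build mm9. The gene coordinates are GRCm38, however: 98.5% of 51487 identifiers had the same position in GENCODE M21, Fth1 being the 1 member that did not. For strand use and multi-mapped reads the setting is not given in the sources used here. Of the listed genes 26144 had a count. The table ends within its last line, among genes without counts.

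Counts were tested with edgeR 4.0.16 in R 4.3.3 (filterByExpr, TMM, robust quasi-likelihood test, no covariate), after the code was tested on simulated data. DESeq2 1.42.0 was an alternative, with other scalings, filters, omission of each library and a replicate block. An SE is the log2 fold change over the square root of F. The 95% intervals use that SE. Floors cover counting error only.

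The members and the lists of pathway and marker genes were chosen with earlier results of these data known. Genes named in full were Nfe2l2, Keap1, all called members, the 2 nearest outside the threshold and the 8 pathway genes of smallest p. Other pathway genes and other members were named after their values were seen. Same-numbered libraries did not deviate together (correlation -0.024 over genes), and replicates differed by more than counting noise (chi-square per degree of freedom 2.97 and 6.22).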

Additional observations from a re-analysis of the deposited data

How the results depend on the processing

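In the settings tried none of the called members changed sign, and the members' median stayed below 0. All 21 member calls were kept with DESeq2 size factors, without a low-count filter and with the replicate block, and 18 with DESeq2's own test. The replicate number in the labels is not stated to mark a shared culture or day, so the replicate block was only an alternative: it gave 4703 calls over all genes against 4401, with 5 members higher and 16 lower as without it. With library totals as the scale the median of all genes shifted by 0.073, the share of higher among all calls went from 45.5% to 60.2%, 8 members were higher and 14 lower, and 24 pathway genes were higher against 15. When each library was left out in turn, 1 to 8 members were called higher and 12 to 21 lower, the members' median ran from -0.21 to -0.053, and all calls ran from 2899 to 4557. The lowest number of higher members, 1, came without vehicle replicate 1, and leaving out vehicle replicate 2 gave 3. When the SGC-CBP30 library labelled SGC-CBP31 was left out, 8 members were higher and 15 lower. In these fits the lone library is assumed to vary like the other group. For members near 10 CPM or lower, such as Hmox1, Blvrb and Prdx4, depth limits what can be detected.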
